A study of Mus musculus with 2 samples.

Results

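Tmem100 Ly6c1 fibroblasts of the mouse aorta were the fibroblasts in which the UMIs (unique molecular identifiers, 1 per captured RNA molecule) of Tmem100, Opcml, Ly6c1, Cd55 and Wnt2 outweighed those of the genes that mark the other aortic fibroblasts. Barcodes were kept as cells from 1000 UMIs and 500 genes upwards, with no more than 10% of UMIs mitochondrial. A fibroblast had at least 5 UMIs over Dcn, Lum and Pdgfra and more of these than of the contractile genes Acta2, Tagln and Myh11. Among fibroblasts, a cell was a member when its UMIs over Tmem100, Opcml, Ly6c1, Cd55 and Wnt2 were at least 3. They also had to exceed both its UMIs over Entpd2, Cpz, Gdf10, Bace2 and Tspan11 and those over Pex5l, Fmod, Ccn5, Vegfd and Rbp4. Members were thus chosen by their own UMI counts of these genes. The rule took 779 of 10116 kept cells, 326 in the knock-in and 453 in the wild-type library. Fibroblasts whose UMIs of the Entpd2 group or of the Fmod group reached 3 and came out highest are called Entpd2-side fibroblasts (880 knock-in and 838 wild-type cells) and Fmod-side fibroblasts (1640 and 1492 cells), and are used here for comparison.

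The study profiled aortic cells by droplet single-cell RNA sequencing, in mice with a knock-in mutation of Mgp and in wild-type mice, with 1 library for each genotype. Mgp encodes matrix Gla protein, a secreted inhibitor of calcification. It also binds members of the bone morphogenetic protein (BMP) family, and the study relates it to cell differentiation under BMP control. Both libraries came from 1-month-old males and females and carry the same batch label. Per the labels, the adventitia was removed under a dissecting microscope, the tissue was digested with Liberase, and dead cells that took up DAPI were sorted out. Which residue is mutated, the strain, how many animals were pooled and the hour of tissue collection are not given in the sources used here. With 1 library per genotype no difference between genotypes was tested and no p-value is given. The intervals below are 95% intervals that cover counting error alone and not the differences between mice or dissections.

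Fibroblasts that carry Pi16, Dpp4, Cd34 and Ly6a (the gene of Sca-1) are known as universal or progenitor-like fibroblasts and are described in the outer layer of many mouse organs, the adventitia of arteries among them. They are known for a hyaluronan- and microfibril-rich matrix and, in transplantation and culture, for giving rise to more specialised fibroblasts or adipocytes. Adventitia is the layer that the dissection aimed to remove. Where the cells described here lay in the vessel wall was not measured.

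The knock-in library held 85831737 UMIs and the wild-type library 79626104 UMIs. The 6419 kept knock-in cells had a median of 11820 UMIs and the 3697 wild-type cells a median of 20480 UMIs, with 4 barcodes kept in both libraries. Smooth muscle cells, taken by the contractile genes, numbered 3017 in the knock-in and 427 in the wild-type library. Member cells were deeper than their library as a whole: the median was 18452 UMIs (range 1386 to 60019) and 4483 genes in the knock-in library, and 24249 UMIs (1119 to 56399) and 5287 genes in the wild-type library. In sum they held 6355651 and 11253632 UMIs. Levels are in CPM: a gene's UMIs summed over a group of cells, scaled to a total of 1000000.

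The label was checked against its 6 markers. Of these, 4 had also chosen the cells, so their values are a description. Tmem100, a transmembrane protein known from BMP signalling in endothelium, stood at 457 CPM in knock-in and 525 CPM in wild-type member cells, against 32.4 and 49.2 CPM in the other two fibroblast groups together. Opcml, a cell adhesion molecule, stood at 620.1 and 382 CPM, against 60.8 and 30.8 CPM. Ly6c1, a GPI-anchored surface protein, stood at 694 and 696 CPM, against 76.0 and 76.3 CPM. Each of these 3 genes stood well above the other fibroblasts in both libraries. Cd55, an inhibitor of complement on the cell surface, had 329 and 412 CPM against 17.0 and 29.9 CPM, and the ligand gene Wnt2 had 154 and 166 CPM against 6.88 and 9.65 CPM.

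The remaining markers, Ly6a and Igfbp6, took no part in the rule. Ly6a had 2117 CPM in knock-in and 2084 CPM in wild-type member cells, against 414 and 401 CPM in the other two groups. Igfbp6, a secreted binding protein for insulin-like growth factor 2, had 2755 and 1813 CPM, against 460.2 and 467 CPM. With every cell thinned to 5000 UMIs, a Ly6a UMI was found in 97.4% of knock-in and 96.4% of wild-type member cells. Macrophages, which are not known for this gene, gave 0.99% and 5.28% after the same thinning; their median depths before thinning were 11815 and 15004 UMIs. Ly6c1 and Ly6a are also endothelial genes, and the endothelial cells of these libraries held 375 and 635 CPM of Ly6c1. Tmem100 was low there, at 18.8 and 14.1 CPM. Cdh5, which defines endothelium, had 2.67 and 0.178 CPM in member cells, against 344 and 511 CPM in endothelial cells, which it helped to choose. Of its 17 knock-in UMIs, 0 were left once cells with 10 or more endothelial, macrophage, mesothelial or smooth muscle UMIs were taken out. Cdh5 UMIs count among the endothelial UMIs, so this step removes cells rich in Cdh5 by design and the 0 is no check.

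**Figure D1:**
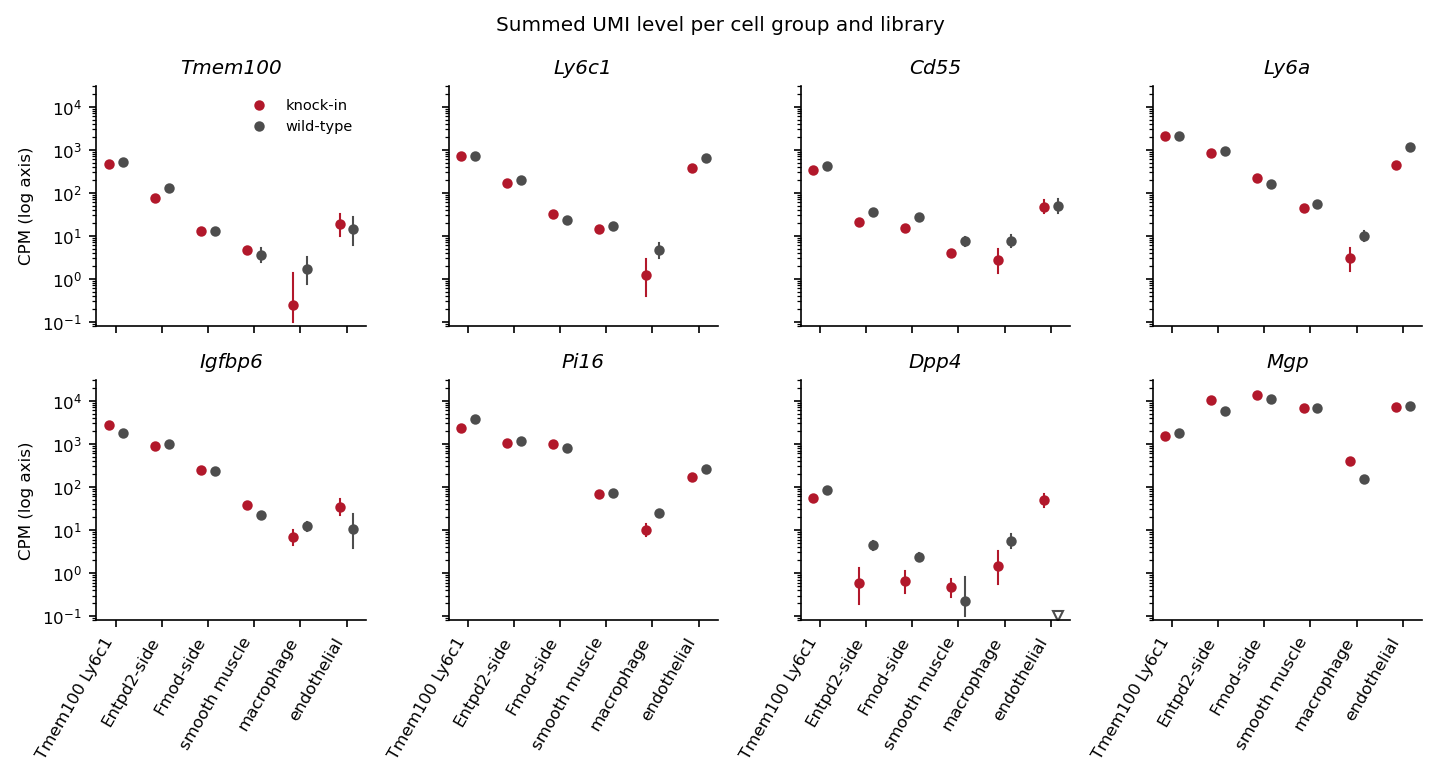
Level of 8 genes in 6 cell groups of each library, as CPM of summed UMIs on a log axis. Points are knock-in (red, left) and wild-type (grey, right), lines are 95% Poisson intervals, and an open triangle marks a group with no UMI. Tmem100, Cd55 and Dpp4 peak in Tmem100 Ly6c1 fibroblasts in both libraries, Ly6c1 and Ly6a are also high in endothelial cells, and Mgp is lower in Tmem100 Ly6c1 fibroblasts (1559 and 1809 CPM) than in any group plotted except macrophages.

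The 5 genes of the rule were spread unevenly over member cells. Their sum had a median of 35.5 UMIs in knock-in cells (highest 240) and 46 UMIs in wild-type cells (highest 272), and it was at least 10 in 287 of 326 and 427 of 453 cells. Ly6c1 gave 30.8% and 31.9% of these UMIs. Opcml gave 27.5% in the knock-in library and 17.5% in the wild-type library, Tmem100 20.3% and 24.1%, Cd55 14.6% and 18.9%, and Wnt2 6.82% and 7.62%. UMIs of all 5 genes were present in 146 knock-in and 238 wild-type cells, and 9 cells of each library had UMIs of a single one. Few cells lay at the threshold: 4 members of each library had a sum of exactly 3, and 7 cells of each library missed membership only because their sum was 2. More cells were kept out by the comparison with the other gene groups: 550 knock-in and 848 wild-type fibroblasts had a sum of 3 or more but were not members, 520 and 809 of them with as many or more Entpd2-group UMIs, and 318 and 486, partly the same cells, with as many or more Fmod-group UMIs. A tie between the sums kept out 17 cells of each library.

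Member cells made up 10.8% of knock-in fibroblasts (326 of 3009, Clopper-Pearson interval 9.75 to 12%) and 15.9% of wild-type fibroblasts (453 of 2851, 14.6 to 17.3%). As a share of all kept cells they were 5.08% (4.55 to 5.64%) and 12.3% (11.2 to 13.4%), with 3017 knock-in and 427 wild-type smooth muscle cells in the denominators. With every cell thinned to 5000 UMIs before the rule was applied, the share of fibroblasts was 12.2% (290 of 2378, 10.9 to 13.6%) in the knock-in and 15.6% (420 of 2696, 14.2 to 17.0%) in the wild-type library. Cells were sexed by Xist and Y-linked UMIs. Among female fibroblasts, members were 9.48% (7.81 to 11.4%) in the knock-in and 16.5% (14.1 to 19.1%) in the wild-type library. Among male fibroblasts they were 16.1% (13.9 to 18.4%) and 16.8% (15 to 18.7%), intervals that overlap. Female cells were 36.1% of knock-in and 31.3% of wild-type fibroblasts, male cells 35.4% and 57.2%, and the others had UMIs of both kinds or of neither. The shares by sex leave out 52 knock-in and 32 wild-type members without a sex call. Such a call needs UMIs, and the median depth of fibroblasts was 11056 UMIs in the knock-in and 21604 UMIs in the wild-type library. Whether the sexes differ in this share was not tested.

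Mgp itself was low in member cells. It stood at 1559 CPM in knock-in and 1809 CPM in wild-type member cells, against 12372 and 9515 CPM in the other two fibroblast groups, a log2 ratio of members over others of -2.99 (knock-in) and -2.39 (wild-type). Macrophages of the same libraries, which are not known for Mgp, held 397 and 150 CPM, and barcodes of 10 to 100 UMIs, which hold free RNA, 8003 and 6729 CPM. Between genotypes, the log2 ratio of knock-in over wild-type was -0.21 (-0.25 to -0.18) in member cells, 0.78 in Entpd2-side and 0.27 in Fmod-side fibroblasts. Within member cells it was 0.61 in females and -0.53 in males, so the sexes pointed in opposite directions. UMIs do not tell the mutated transcript from the wild-type one.

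Against the other two fibroblast groups, member cells of both libraries shared a set of strongly enriched genes. The rule chose cells by this same contrast, so the ratios and counts are descriptions and no support for the choice. Of 6050 genes with enough UMIs, 268 were at least 2-fold higher in both libraries (4.43%) and 217 at least 2-fold lower in both (3.59%). The 15 genes furthest above the others, ranked by the interval bound nearest 0 in the weaker library, were Pla1a, Dact2, Wnt10b, Dpp4, Efhd1, Procr, Gap43, Lrrn4cl, Gngt2, Aldh1a3, Islr2, Tek, Uchl1, Emilin2 and Stmn4. For most of them the excess was smaller against Entpd2-side than against Fmod-side fibroblasts in both libraries. Gap43 was at log2 ratios of 3.80 (knock-in) and 2.88 (wild-type) against Entpd2-side, but at 6.49 and 5.42 against Fmod-side fibroblasts. Uchl1 did not follow in either library, nor did Dpp4 in the knock-in library.

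Pla1a, a phospholipase that acts on phosphatidylserine, had 31.8 CPM in knock-in and 26.8 CPM in wild-type member cells, against 0.405 and 0.387 CPM in the others (log2 ratios 6.29 and 6.11). Dact2 and Wnt10b, an intracellular modulator and a ligand of Wnt signalling, reached log2 ratios of 6.07 and 5.46 and of 6.11 and 5.29. Dpp4, the dipeptidyl peptidase CD26 that is used to sort progenitor fibroblasts, had 54.1 and 84.4 CPM against 0.626 and 3.0 CPM (6.43 and 4.82). All 4 genes had few UMIs in the other fibroblasts of both libraries. Aldh1a3, an enzyme of retinoic acid synthesis, had 47.2 and 106 CPM against 2.76 and 4.12 CPM (4.10 and 4.68). Procr, the endothelial protein C receptor, had 108 and 96.5 CPM (4.32 and 4.37), and Tek, the angiopoietin receptor best known from endothelium, 31.6 and 64.6 CPM (4.07 and 4.27). Emilin2, a glycoprotein of elastic fibres, had 202 and 232 CPM (4.15 and 3.66). The growth cone and neuronal genes Gap43, Stmn4, Uchl1 and Islr2 lay between 3.79 and 5.03.

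Of the 10 genes furthest below the others, 9 were Colec11, Art4, Adamts17, Ephb1, Heyl, Cntn6, Cdh18, Smoc1 and Ntf3. Colec11, a collectin that binds sugars on microbes, had 0.472 CPM in knock-in and 0.267 CPM in wild-type member cells, 3 UMIs in each library, against 28.2 and 28.0 CPM in the others. Heyl, a target of Notch signalling, had 3.30 and 2.49 CPM against 58.5 and 67.6 CPM (log2 ratios -4.15 and -4.76), and Ntf3, the ligand neurotrophin 3, 7.24 and 5.69 CPM against 89.4 and 80.5 CPM (-3.63 and -3.82). For these 9 genes the deficit was larger against Fmod-side than against Entpd2-side fibroblasts in both libraries: Smoc1, a secreted calcium-binding protein, was at -3.90 and -4.54 against Fmod-side but at -2.42 and -2.16 against Entpd2-side fibroblasts.

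**Figure D2:**
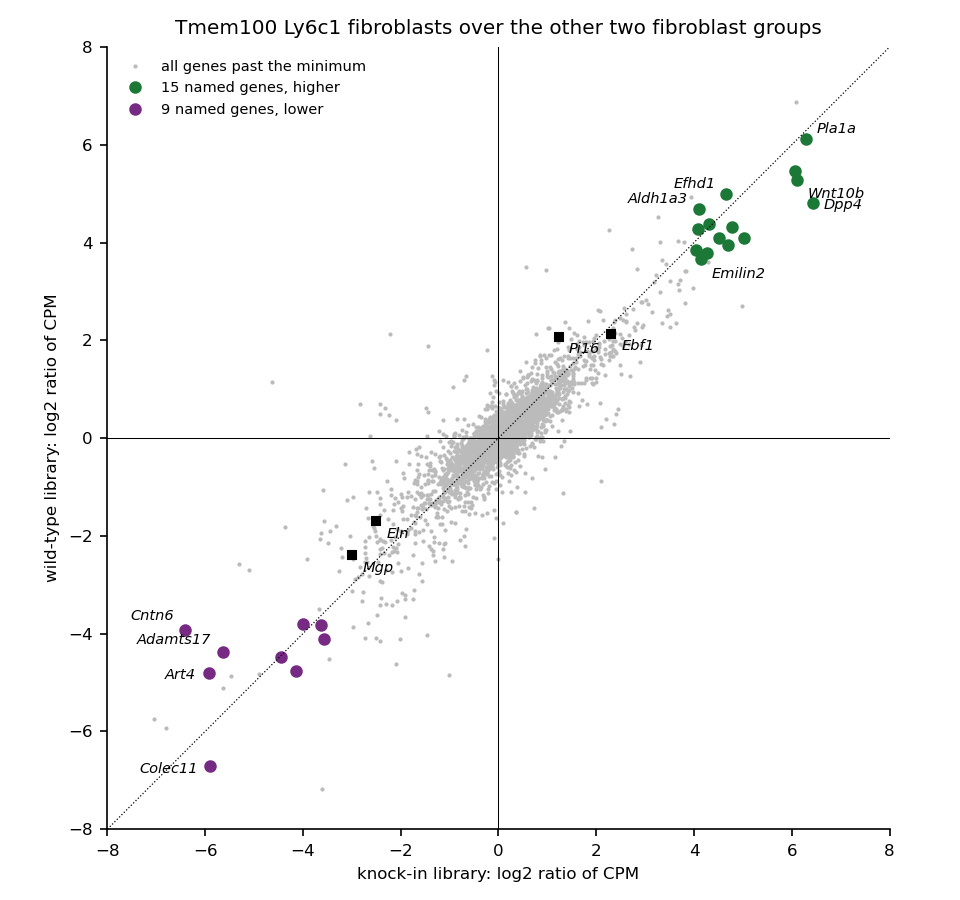
Log2 ratio of CPM in Tmem100 Ly6c1 fibroblasts over Entpd2-side and Fmod-side fibroblasts together, knock-in library on the x axis and wild-type library on the y axis, 1 point per gene. Green points are the 15 named higher genes, purple points 9 named lower genes, black squares Pi16, Ebf1, Eln and Mgp, and the dotted line marks equal ratios. All named genes have the same sign in both libraries because the choice of named genes required it. Among the named genes, those furthest from the line are Cntn6 (-6.42 in knock-in and -3.93 in wild-type) and Dpp4 (6.43 and 4.82).

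Of 22 listed genes of progenitor fibroblasts, 20 were at least 1.5-fold higher in member cells of both libraries, where 8.6% of 13254 genes with 10 UMIs in each library were; the exceptions were Il33 and Pcolce2. The list's median log2 ratio was 2.53 in the knock-in and 2.44 in the wild-type library, beside 0.04 and 0.08 over all these genes. The list shares its theme with the label and was written with earlier results of these data known. It holds the label's markers Ly6a and Igfbp6, and Dpp4, Dact2, Efhd1, Procr, Uchl1 and Stmn4, named above from this same contrast. The count is thus a description and no support for the label. Pi16, a secreted peptidase inhibitor, had 2359.8 CPM in knock-in and 3868 CPM in wild-type member cells, against 1005 and 919.7 CPM in the others (1.23 and 2.07). It was thus present in all 3 fibroblast groups. Cd248 (endosialin) had 771 and 713 CPM against 95.8 and 101 CPM, and Cd34 had 818 and 980.3 CPM against 329 and 420.2 CPM.

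Elastic fibre genes stood in both directions. Of 20 elastic fibre genes, 6 were at least 1.5-fold higher in both libraries (Fbn1, Fbln2, Efemp1, Mfap5, Emilin2 and Loxl2) and 5 at least 1.5-fold lower (Eln, Fbln5, Mfap4, Lox and Ltbp2), where 8.6% of all genes were higher and 10.0% lower. Fbn1, the main protein of microfibrils, had 2764 CPM in knock-in and 3550 CPM in wild-type member cells, against 612 and 1007 CPM in the others. Eln, the core protein of elastic fibres, had 1180.4 and 3826 CPM against 6661 and 12458 CPM. Lox, which cross-links elastin and collagen, had 121 and 299 CPM against 474 and 842 CPM. Fibrillin thus stood above, and elastin and its cross-linking enzyme below, the level of the other fibroblasts. Of 13 basement membrane genes, 4 were higher by the same measure (Lama4, Lamb1, Lamc1 and Nid1) and 5 lower (Col4a1, Col4a2, Col4a5, Col15a1 and Lama2), beside the same 8.6% and 10.0% of all genes. Of 9 fibrillar collagen genes, 2 were higher by that measure (Col5a3 and Col12a1) and 3 lower (Col1a1, Col1a2 and Col11a1), beside the same 8.6% and 10.0%. Their median log2 ratio was 0.46 in the knock-in and 0.08 in the wild-type library. Col1a1 had 9181 and 10222 CPM against 16748 and 21466 CPM. Col3a1, in neither set, had 15444 and 16210.5 CPM against 17331 and 21988 CPM.

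Hyaluronan and prostaglandin genes, listed together, were mostly higher. Has1 and Has2, synthases of hyaluronan, had log2 ratios of 2.14 and 2.42 and of 3.30 and 3.0 in the knock-in and wild-type libraries. Its receptor Cd44 (2.38 and 1.79), the hyaluronan-binding proteins Tnfaip6 (1.65 and 1.86) and Vcan (1.91 and 1.64), and Ptgs1, which starts prostaglandin synthesis (3.79 and 4.01), were higher too. In all, 7 of 12 genes on this list were at least 1.5-fold higher in both libraries and 0 lower, where 8.6% and 10.0% of all genes were. Tnfaip6 had the most UMIs of those named, at 1046 CPM in knock-in and 1388 CPM in wild-type member cells.

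BMP ligands differed in direction. Bmp7 (2.52 CPM in knock-in and 9.6 CPM in wild-type member cells, against 0.0368 and 0.0816 CPM), Bmp6 (log2 ratios 3.26 and 4.52) and Bmp2 (2.13 and 1.49) were higher in member cells. Bmp4 was lower, at 40.3 and 37.6 CPM against 217 and 159 CPM. Of the receptors, Tgfbr3 (betaglycan) was higher (1.79 and 1.57) and Bmpr1b lower (-1.12 and -2.16). Of 11 BMP target genes 0 were at least 1.5-fold higher in both libraries and 3 were lower (Id3, Bambi and Hey1), where 8.6% and 10.0% of all genes were. Among secreted BMP antagonists Fstl1 had the most UMIs, at 3700.0 and 3824 CPM, against 1191 and 1745 CPM.

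Further signalling genes set member cells apart. Of 16 Wnt genes, 5 were at least 1.5-fold higher in both libraries and 3 lower, where 8.6% and 10.0% of all genes were. The higher ones were the ligand genes Wnt10b, Wnt11 and Wnt9a and the secreted modulators Wif1 and Dkk2. The lower ones were the secreted modulators Sfrp2, Frzb and Dkk3, so modulators stood in both directions. The Hedgehog target genes Ptch1 and Hhip were lower, with Ptch1 at 21.6 CPM in knock-in and 11.8 CPM in wild-type member cells against 70.9 and 52.2 CPM in the others. The chemokine genes Ccl2, Ccl7 and Ccl11 were higher and Ccl19 lower. Of 22 mesenchymal transcription factors, Ebf1 (log2 ratios 2.31 and 2.13) and Ebf2 (2.33 and 2.16) were the highest, and Nr2f2 was lower (-1.88 and -1.94). Of 10 interferon genes, 4 were at least 1.5-fold higher in both libraries (Ifit1, Irf7, Rsad2 and Ifi27l2a) and 0 lower, where 8.6% and 10.0% of all genes were. Ifi27l2a, an interferon-inducible gene, had 885 and 928 CPM against 77.6 and 101 CPM, while Isg15 differed by 0.20 and 0.41 on the log2 scale.

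Member cells varied along Pi16. Over members thinned to 5000 UMIs (307 knock-in and 442 wild-type cells), the genes ranked closest with Pi16, of 1365 with enough UMIs, were Mfap5 (Spearman rho 0.55 in knock-in and 0.72 in wild-type cells), Htra3 (0.49 and 0.54), Adamts5 (0.42 and 0.51) and Anxa3 (0.41 and 0.54). Mfap5 encodes a microfibril protein, and Htra3 and Adamts5 are secreted proteases. Furthest in the opposite direction were S100a4 (-0.48 and -0.42), Lum (-0.48 and -0.34), Htra1 (-0.40 and -0.34) and Cd9 (-0.33 and -0.37). Lum is also a gene by which fibroblasts were chosen. The cells of a library share its RNA background, so these are descriptions without a test.

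**Figure D3:**
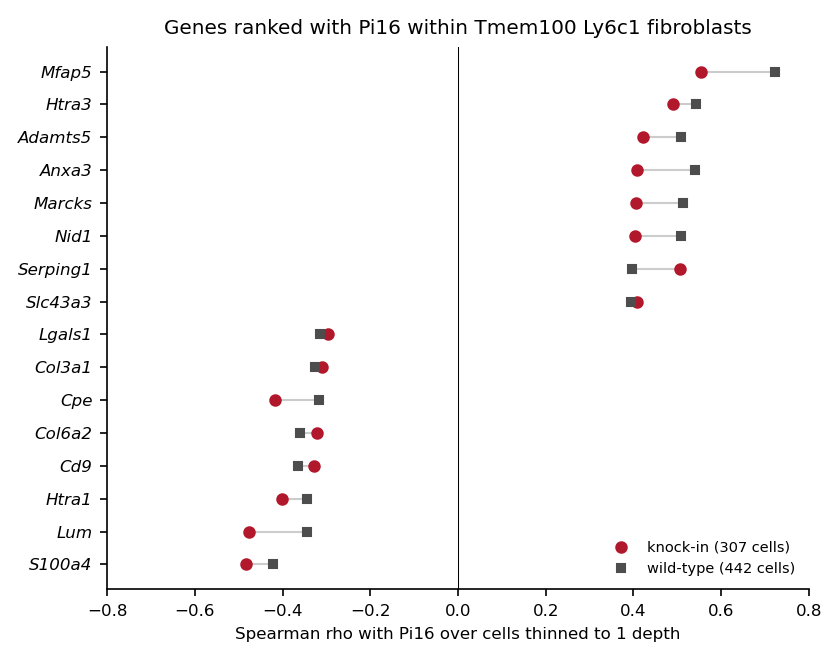
Spearman rank correlation with Pi16 over Tmem100 Ly6c1 fibroblasts thinned to 5000 UMIs, for the 8 genes furthest above and the 8 furthest below 0 in both libraries. Red circles are the 307 knock-in cells and grey squares the 442 wild-type cells. Mfap5 stands highest in both (0.55 and 0.72) and S100a4 lowest (-0.48 and -0.42).

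A Dpp4 UMI was found in 51 of 307 thinned knock-in members (16.6%, 12.6 to 21.3%) and in 106 of 442 wild-type members (24.0%, 20.1 to 28.2%). Macrophages gave 0.99% and 2.35%. Members with a Dpp4 UMI had more Pi16 than members without: 3609 against 2074 CPM in the knock-in library and 6724 against 2939 CPM in the wild-type library. Cd55, itself a gene of the rule, was higher with Dpp4 by 1.39 and 1.00 on the log2 scale. Sema3c, a secreted guidance factor, was higher by 1.00 and 1.07, and Efhd1 by 1.91 and 1.49. Mgp was lower with Dpp4, at 276 against 1841 CPM in the knock-in library and 1064 against 2045 CPM in the wild-type library. Col15a1, a collagen of basement membranes, differed by -1.05 and -1.76, Cxcl12 by -1.65 and -0.83 and S100a4 by -1.53 and -1.76. In both libraries the cells with a Dpp4 UMI thus held more Pi16, Sema3c and Efhd1 and less Mgp. Igfbp6 was higher with Dpp4 in knock-in cells (0.59) and differed by -0.11 in wild-type cells.

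Between genotypes, 97 of 6319 genes with at least 50 UMIs over both libraries and 20 CPM in 1 were at least 2-fold higher in knock-in member cells (1.54%) and 153 at least 2-fold lower (2.42%). The median log2 ratio over these genes was -0.09. At a minimum of 10 UMIs the counts were 473 of 12524 (3.78%) and 943 (7.53%). Of the 12 genes furthest up, 11 were Dbp, Nr1d1, Inmt, Hlf, Cdh13, Gpnmb, Tef, Per3, S100a4, Lrrc15 and Nr1d2. The 12 furthest down were Ifi202b, H19, Hist1h1b, Prlr, Adamts4, Arntl, Npas2, Sphkap, Thbs4, Mki67, Ren1 and Sntg1. Some of these ratios were about as large in the other fibroblasts and some were not.

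Cdh13, Gpnmb, S100a4 and Lrrc15 stood further apart between genotypes in member cells than in the other two groups, a difference that was not tested. Cdh13, T-cadherin, a GPI-anchored adhesion molecule that binds adiponectin, had 307 CPM in knock-in and 52.2 CPM in wild-type member cells, a log2 ratio of 2.56 (2.42 to 2.69) against 0.77 in Entpd2-side and 0.72 in Fmod-side fibroblasts. Cdh13 UMIs were found in 187 of 326 and 113 of 453 member cells. S100a4, a calcium-binding protein used as a fibroblast marker, had 717 and 159 CPM, a ratio of 2.17 (2.09 to 2.25) against 0.85 and 0.47. Both ratios held in each sex, at 1.83 in females and 3.39 in males for Cdh13 and at 1.99 and 2.53 for S100a4. Gpnmb, a transmembrane glycoprotein, had 62.1 and 9.42 CPM (2.72, 2.41 to 3.05, against 0.96 and 1.16). Lrrc15, a leucine-rich repeat protein of activated fibroblasts, had 57.7 and 12.1 CPM (2.26, 1.97 to 2.55, against 0.26 and 0.57). In the other groups it was near the floor, with 17 knock-in and 25 wild-type UMIs in Entpd2-side and 13 and 16 in Fmod-side fibroblasts. Both of those intervals include 0 (-0.72 to 1.21 and -0.61 to 1.72). Lrrc15 rested on few cells, with 40.3% of its knock-in UMIs and 50.7% of its wild-type UMIs in the 5 highest cells, and its ratio was 1.30 without the cells that held 10 or more endothelial, macrophage, mesothelial or smooth muscle UMIs.

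Clock genes stood apart in every fibroblast group. Dbp, a transcription factor that follows the clock, had 265 CPM in knock-in and 11.1 CPM in wild-type member cells (log2 ratio 4.58, 4.32 to 4.85), and its ratio was 4.17 in Entpd2-side and 3.58 in Fmod-side fibroblasts. Arntl, the gene of the clock activator BMAL1, had 5.98 and 66.2 CPM (-3.47, against -4.28 and -3.49), and Npas2, its partner, 9.6 and 98.7 CPM (-3.36, against -4.06 and -3.89). The repressor Nr1d1 had 194 and 29.0 CPM (2.74, against 2.42 and 1.83). Of 18 clock genes, 11 were at least 1.5-fold higher in knock-in member cells and 4 at least 1.5-fold lower, where 8.26% and 14.4% of 12524 genes were. The list's median was 1.28 in member cells, 1.22 in Entpd2-side and 1.06 in Fmod-side fibroblasts. In member cells it was 0.64 in females, 0.80 at 8000 to 20000 UMIs and 0.88 with lists at a minimum of 50 UMIs.

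**Figure D4:**
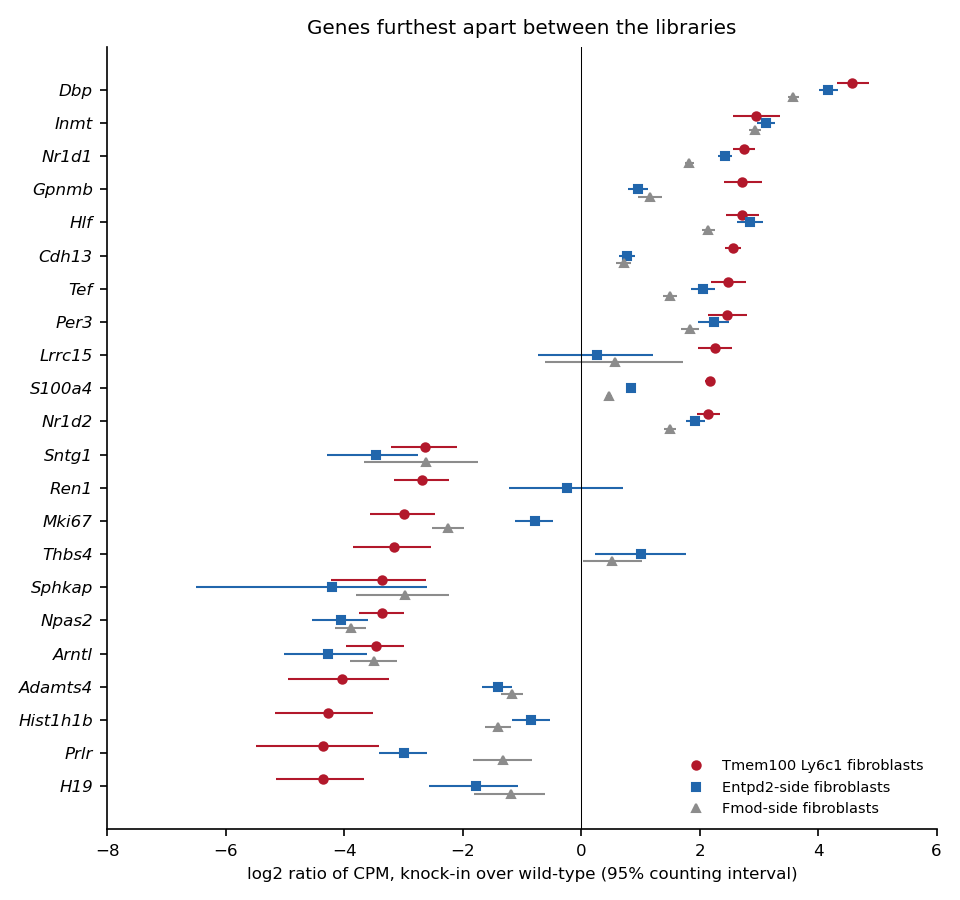
Log2 ratio of CPM, knock-in over wild-type, for 22 named genes, in Tmem100 Ly6c1 fibroblasts (red circles), Entpd2-side (blue squares) and Fmod-side fibroblasts (grey triangles). Lines are 95% counting intervals, Ifi202b is left out because it has no knock-in UMI in these cells, and Ren1 has no Fmod-side point because its knock-in count there is 0. Clock genes lie on the same side of 0 in the 3 groups, while Cdh13, Gpnmb, S100a4 and Lrrc15 lie further to the right in Tmem100 Ly6c1 fibroblasts, and Thbs4 lies on opposite sides of 0.

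Among the lower genes, Ifi202b, an interferon-inducible gene, had 0 UMIs in knock-in and 422 in wild-type member cells, at least 79.4-fold lower against a floor of 3 counts per library. Over all kept cells it had 17 and 1189 UMIs, so it was low in the knock-in library as a whole. H19, an imprinted non-coding RNA of the fetus, had 2.67 and 55.1 CPM (log2 ratio -4.36, -5.15 to -3.67), against -1.78 in Entpd2-side and -1.19 in Fmod-side fibroblasts. Prlr, the prolactin receptor, had 1.42 and 29.0 CPM (-4.35), against -3.0 and -1.32. Adamts4, a protease of proteoglycans, had 2.05 and 33.5 CPM (-4.03), against -1.41 and -1.17. These 3 genes were lower in all 3 groups and furthest apart in member cells. Thbs4, a thrombospondin, had 3.46 and 30.8 CPM (-3.16), but 89.3% of its wild-type UMIs came from 5 cells.

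H19 was also on a list of growth genes. Of 15 insulin-like growth factor and imprinted growth genes, 0 were at least 1.5-fold higher and 8 at least 1.5-fold lower in knock-in member cells, beside 8.26% and 14.4% of all genes, with a median of -0.66 against -0.73 in Entpd2-side and -0.25 in Fmod-side fibroblasts. Dlk1, an inhibitor of adipocyte differentiation, had 3 UMIs in knock-in and 95 in wild-type members (-4.16, -6.46 to -2.57). Cdkn1c, an inhibitor of the cell cycle, had 85.4 and 257 CPM (-1.59), against -0.81 and 0.00 elsewhere. Peg3 had 25.2 and 110.2 CPM (-2.13), Mest 5.51 and 19.5 CPM (-1.83) and Igf2 2.05 and 10.1 CPM (-2.31). Igfbp5 and Igf1r did not follow, with ratios of -0.03 and -0.01.

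Among the 22 progenitor genes, 1 was at least 1.5-fold higher (Igfbp6, 0.60) in knock-in member cells and 9 at least 1.5-fold lower, where 8.26% and 14.4% of all genes were, with a median of -0.32, beside -0.10 over all genes at this minimum and -0.57 in Entpd2-side and -0.16 in Fmod-side fibroblasts. Pi16 had 2359.8 CPM in knock-in and 3868 CPM in wild-type member cells (-0.71, -0.74 to -0.69), against -0.11 in Entpd2-side and 0.26 in Fmod-side fibroblasts. Dpp4 had 54.1 and 84.4 CPM (-0.64), Il33, an alarmin cytokine, 88.4 and 191 CPM (-1.11), and Anxa3, a calcium-dependent membrane-binding protein, 331 and 608 CPM (-0.88). Ly6a (0.02), Cd248 (0.11) and Pcsk6 (0.10) were within 1.1-fold of equal. The main markers Tmem100 (-0.20) and Ly6c1 (0.00) are genes of the rule.

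**Figure D5:**
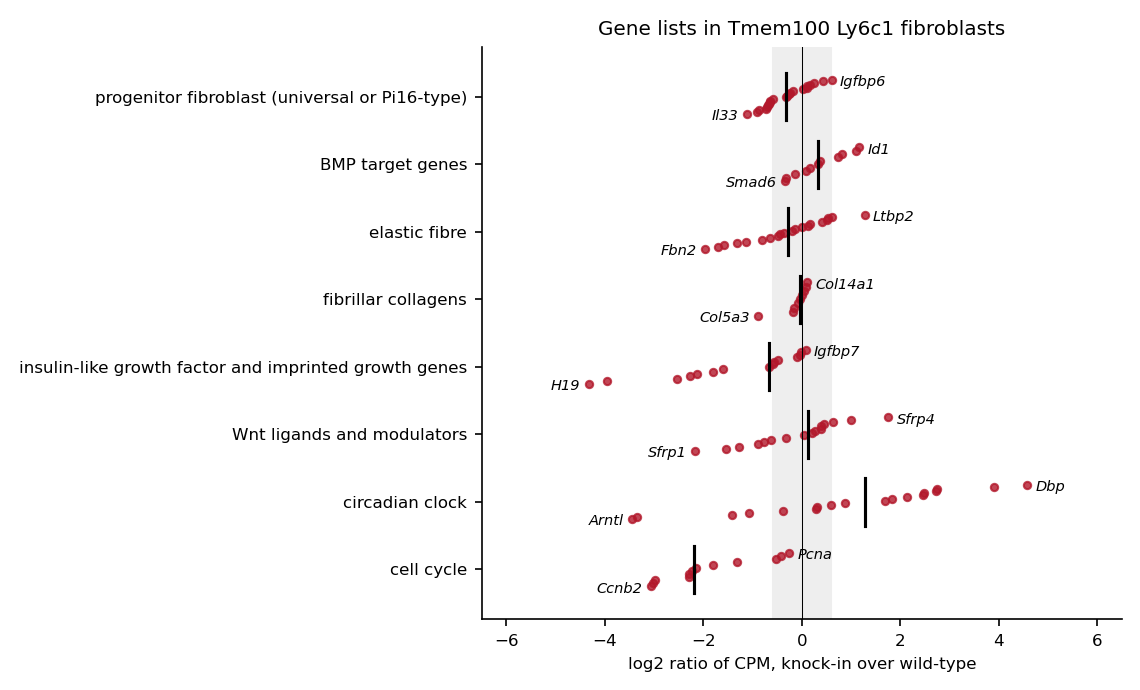
Log2 ratio of CPM, knock-in over wild-type, in Tmem100 Ly6c1 fibroblasts for the genes of 8 lists, 1 point per gene with at least 10 UMIs, 0.5 added to each sum. Black bars are medians, the grey band marks ratios under 1.5-fold, and the lowest and highest gene of each list are named. The medians run from -2.19 (cell cycle) to 1.28 (circadian clock).

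Of 20 elastic fibre genes, 2 were at least 1.5-fold higher in knock-in member cells and 7 at least 1.5-fold lower, beside 8.26% and 14.4% of all genes. The median was -0.28, beside -0.10 over all genes. Eln had 1180.4 CPM in knock-in and 3826 CPM in wild-type member cells (-1.70, -1.73 to -1.66), against -0.98 in Entpd2-side and -0.88 in Fmod-side fibroblasts. Mfap4, a microfibril-associated glycoprotein, had 547 and 1625 CPM (-1.57), against -0.39 and -0.12, and Lox 121 and 299 CPM (-1.31), against -0.81 and -0.82. Fbln1 had 282 and 616 CPM (-1.13), against -0.53 and -0.02. Ltbp2 and Ltbp4, which bind latent TGF-beta or microfibrils, were the 2 higher genes (1.27 and 0.61). The fibrillar collagens were close to equal: 0 of 9 were 1.5-fold higher, 1 was lower (Col5a3, -0.88), and the median was -0.04, with Col1a2 at 13564 and 13187 CPM.

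Further matrix and signalling lists gave smaller counts, to be read against the same 8.26% and 14.4% of all genes. Basement membrane genes had 2 of 13 higher (Col4a5 and Col18a1) and 0 lower, proteoglycans 2 of 7 higher (Prelp, 395 and 164 CPM, and Ecm2) and 0 lower. Hyaluronan and prostaglandin genes, listed together, had 2 of 11 higher and 2 lower. Cd44 had 563 CPM in knock-in and 265 CPM in wild-type member cells (1.09), and Ptgs2, the inducible cyclooxygenase, 86.5 and 27.3 CPM (1.67). Has1 had 290.3 and 469 CPM (-0.69), and the prostaglandin gene Ptges was at -0.82. TGF-beta target genes had 2 of 10 higher, Ltbp2 among them (1.27, and 0.12 in members of 8000 to 20000 UMIs), and 1 lower (Pmepa1, -0.85).

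BMP target genes, the readout closest to the study's question, had 4 of 11 at least 1.5-fold higher and 0 lower, beside 8.26% and 14.4% of all genes, with a median of 0.33 against 0.26 in Entpd2-side and 0.06 in Fmod-side fibroblasts. Id1, an inhibitor of differentiation and a direct BMP target, had 76.3 CPM in knock-in and 34.2 CPM in wild-type member cells (1.16, 0.96 to 1.35), against 0.00 and -0.32 elsewhere. Id4 had 47.8 and 22.3 CPM (1.10, 0.85 to 1.35), against 0.28 and -0.04. The other 2, Smad9 and Hey1, had under 25 UMIs per library and intervals that include 0. Id3, the target with the most UMIs, had 787 and 741 CPM (0.09, 0.04 to 0.14), and the feedback inhibitors Smad6 (-0.34) and Smad7 (-0.14) were not higher. Id1 was at 1.03 without cells that held 10 or more endothelial, macrophage, mesothelial or smooth muscle UMIs and at 0.36 in members of 8000 to 20000 UMIs. The median of the list ranged over the alternatives from 0.07 in that depth window to 0.55 in female cells.

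BMP ligands and receptors had 2 of 16 higher and 5 lower in knock-in member cells, beside 8.26% and 14.4% of all genes. Bmp7 had 16 UMIs in knock-in and 108 in wild-type members (-1.93, -2.79 to -1.17), and Bmp3 9.44 and 22.7 CPM (-1.26). Bmpr1b, a type 1 receptor, had 14.2 and 6.84 CPM (1.05), while Bmpr1a, Bmpr2 and Acvr1 lay between 0.09 and 0.25. Of 13 secreted BMP antagonists 4 were higher and 2 lower. Bmper had 23.4 and 50.4 CPM (-1.10), against -0.61 in Entpd2-side and 0.80 in Fmod-side fibroblasts, and Twsg1 164 and 105 CPM (0.64). Sost had 66 and 11 UMIs (3.41), a ratio that was 1.46 without cells holding 10 or more endothelial, macrophage, mesothelial or smooth muscle UMIs and -0.94 in members of 8000 to 20000 UMIs.

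Wnt genes had 3 of 16 higher and 6 lower, beside 8.26% and 14.4% of all genes. Sfrp4, a secreted Wnt inhibitor, had 1953 CPM in knock-in and 579 CPM in wild-type member cells (1.75, 1.71 to 1.80), against -0.27 in Entpd2-side and -0.09 in Fmod-side fibroblasts. Sfrp2 had 544 and 271 CPM (1.01), and Sfrp1 45.5 and 203 CPM (-2.16). The related inhibitors thus stood in opposite directions. Wnt5a (-0.77), Wnt9a (-0.88) and Dkk2 (-1.54) were lower. Chemokine and cytokine genes had 4 of 12 higher and 2 lower: Ccl2, which attracts monocytes, had 156 and 58.7 CPM (1.41), against -0.52 and 0.30 in the other groups, and Cxcl1, which attracts neutrophils, 355 and 185 CPM (0.94). Complement genes had 3 of 11 higher (C4b, C2 and Clu) and 0 lower.

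Transcription factors had 4 of 22 higher and 3 lower, the lower share being close to that of all genes (14.4%). Ebf1 had 1830 CPM in knock-in and 1126 CPM in wild-type member cells (0.70), Foxd1 44.7 and 21.2 CPM (1.07), and Tcf21, a factor of fibroblast lineages, 4.09 and 18.2 CPM (-2.15). Adipocyte genes had 0 of 11 higher and 5 lower, with Lpl, lipoprotein lipase, at 102 and 343 CPM (-1.75). Hedgehog genes had 2 of 7 higher and 1 lower, posterior Hox genes 2 of 7 higher and 1 lower, anterior Hox genes 0 of 10 higher and 1 lower, chondro-osteogenic genes 2 of 6 higher and 1 lower, interferon genes 1 of 10 higher and 0 lower, and genes that respond to dissociation 3 of 14 higher and 0 lower. Fos, with the most UMIs of these, was at 2882 and 3632 CPM (-0.33).

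Few members of either library were cycling. At 5000 UMIs per cell, 6 of 307 knock-in members (1.95%, 0.721 to 4.21%) and 25 of 442 wild-type members (5.66%, 3.69 to 8.24%) had 3 or more UMIs of 12 cell cycle genes, intervals that overlap. Of the 12 genes 0 were at least 1.5-fold higher in knock-in members and 9 at least 1.5-fold lower, beside 8.26% and 14.4% of all genes. The median was -2.19 against -0.73 in Entpd2-side and -2.17 in Fmod-side fibroblasts. That median was -1.01 in members of 8000 to 20000 UMIs, -3.48 in female cells and -0.31 without cells that held 10 or more cell cycle UMIs. Mki67 had 4.88 and 38.9 CPM (-3.0, and -1.44 in members of 8000 to 20000 UMIs), with all 31 knock-in UMIs and 54.6% of the wild-type UMIs in 5 cells each. Hist1h1b, a histone gene of dividing cells, was at -4.28 and at -1.12 without cells that held 10 or more cell cycle UMIs.

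UMIs of other cell types differed between the member cells of the 2 libraries. The macrophage list of 10 genes summed to 26.4 CPM in knock-in and 168 CPM in wild-type members, and 0 knock-in and 6 wild-type cells held 10 or more of these UMIs. The endothelial list of 10 genes summed to 80.7 and 30.8 CPM, with 59.8% of the knock-in UMIs in 1 cell. The smooth muscle list of 5 genes, without those of the fibroblast rule, summed to 101 and 41.3 CPM, and 29 knock-in and 13 wild-type cells held 10 or more of the full set. Mesothelial genes summed to 2.36 and 31.5 CPM, with 6 of 8 at 0 in knock-in members and 73.7% of the wild-type UMIs in 1 cell. Pericyte genes summed to 267 and 148 CPM, with 1 of 6 at 0 in each library, and 61 of 326 knock-in (18.7%) and 49 of 453 wild-type members (10.8%) held 10 or more of their UMIs. These cells were not left out in the alternative given next. Schwann, adipocyte, lymphocyte and erythroid genes gave at most 31 UMIs per list and library. Entpd2-side and Fmod-side fibroblasts together held 351 CPM of the pericyte list in the knock-in and 346 CPM in the wild-type library, more than members. They held 1.18 and 32.0 CPM of the mesothelial, 132 and 125 CPM of the macrophage, 68.6 and 41.8 CPM of the endothelial and 188 and 123 CPM of the smooth muscle list. With the cells that held 10 or more endothelial, macrophage, mesothelial or smooth muscle UMIs left out (294 knock-in and 432 wild-type members stayed), Pi16 was at -0.55, Eln at -1.71, Cdh13 at 2.31, S100a4 at 2.08 and Sfrp4 at 1.79.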

How the data were processed

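The deposited files hold raw UMI counts per gene and barcode for 1 knock-in and 1 wild-type aorta library. To obtain these counts the authors ran Cell Ranger, version 7.1.0, according to the submitters' processing notes. The genome build and annotation are not given in the sources used here. No library was normalised before deposit, and barcodes without cells are included.

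From these counts, cells were selected and classed by summed UMIs as the opening states. UMIs were summed over the cells of a class in each library and divided by all UMIs of that class (CPM). CPM intervals are exact Poisson, ratio intervals exact conditional binomial and share intervals Clopper-Pearson, all at 95%. List medians used sums with 0.5 added. With 1 library per genotype there is no test, and cells are not replicates. Macrophages were cells with at least 10 UMIs over Lyz2, C1qa, C1qb and Csf1r, and endothelial cells those with at least 5 over Pecam1, Cdh5, Vwf and Egfl7, both with under 5 fibroblast UMIs. Smooth muscle cells had at least 10 contractile UMIs, more than their fibroblast UMIs. A cell was female with Xist and no Y-linked UMIs, and male with the reverse.

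Named genes in the contrast with other fibroblasts had at least 50 UMIs and 20 CPM, and were the 15 highest and 10 lowest by the interval bound nearest 0 in the weaker library. Between genotypes they had at least 50 UMIs over both libraries and 20 CPM in 1, reached 0.2 of the highest level among smooth muscle, macrophage and endothelial cells, and were the 12 highest and 12 lowest by that bound. From each list the genes with the most UMIs or the largest ratios were named. Genes of the rule, mitochondrial, ribosomal, haemoglobin, immunoglobulin, sex-linked and unnamed genes were left out of the contrasts with other fibroblasts and between genotypes. Genes of the rule were kept in the comparisons within member cells. Some genes that these rules took are not reported here. The members and the gene lists were chosen with earlier results of these data known, and Pi16 and Dpp4 as dividing genes after member values had been seen.

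Doublets were kept; as an alternative the highest Scrublet scores at 0.8% per 1000 cells were removed, 330 knock-in and 109 wild-type cells (6 and 12 members), since Scrublet's own threshold marked 120 and 4. Ratios and thinning were tested on simulated counts. Python 3.11.15, numpy 2.4.6, scipy 1.17.1, pandas 2.3.3 and scanpy 1.11.5 were used.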

Additional observations from a re-analysis of the deposited data

Results flagged for a closer look

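Some genes differed between knock-in and wild-type libraries in one direction in Tmem100 Ly6c1 fibroblasts and in the other direction elsewhere, with counting intervals that leave out 0 on both sides. The difference between the cell groups or sexes was not tested. Values are on the log2 scale, knock-in over wild-type.

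Thbs4, a thrombospondin of the matrix, was at -3.16 in member cells, at 1.00 in Entpd2-side and at 0.52 in Fmod-side fibroblasts, with 5 knock-in and 22 wild-type member cells holding its UMIs. Cd36, a fatty acid transporter, was at -2.35 in member cells and 1.03 in Fmod-side fibroblasts. Bmper, which modulates BMP signalling, was at -1.10 and 0.80 in the same groups. Hoxa9, a homeobox gene of posterior segments, was at 1.02 in member cells and -0.89 in Entpd2-side fibroblasts.

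Within member cells the sexes stood in opposite directions for several genes. Hhip, an inhibitor of Hedgehog ligands, was at -0.92 in female and 2.46 in male cells. Col11a1, a fibrillar collagen, was at -2.76 in female and 3.69 in male cells. The chemokine gene Ccl7 was at -0.84 and 1.19, and the matrix gene Comp at -1.09 and 0.73, again in female and male cells.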

How the results depend on the processing

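No ratio of a gene taken by the rules and no progenitor, BMP target, elastic fibre, growth gene, clock or cell cycle median changed sign under any alternative. Medians of other lists, most of them near 0, did: hedgehog (0.26) was -0.07 in members of 8000 to 20000 UMIs, chemokine (0.10) -0.22 and chondro-osteogenic (0.12) -0.44 in female cells, and the Wnt, BMP ligand, BMP antagonist, TGF-beta, complement, fibrillar collagen, transcription factor, anterior Hox, interferon and dissociation lists also crossed 0 under at least 1 alternative. Among genes outside the rules, Mgp (-0.21) was 0.61 in female cells and Sost (3.41) -0.94 at 8000 to 20000 UMIs, on 2 knock-in and 3 wild-type UMIs. The share of fibroblasts that were members in the knock-in library (10.8%) was 12.2% with cells thinned to 5000 UMIs, 9.48% in female and 16.1% in male cells, and the knock-in minus wild-type difference of -5.05 percentage points was -6.98 in female and -0.73 in male cells. The progenitor list's median of -0.32 was -0.45 in male cells and -0.23 with ratios centred on the median gene. A minimum of 10 UMIs in place of 50 gave 473 genes at least 2-fold higher in knock-in members, against 97, and 943 lower, against 153. The BMP target median of 0.33 was 0.14 with doublets removed, 0.13 in male cells and 0.17 at a minimum of 50 UMIs. Why these values moved was not tested. Of 216 values of the 24 genes the rule took between genotypes, 51 moved beyond their counting interval, as did 16 of 150 values of the 25 it took against other fibroblasts. Leaving out a replicate was not possible with 1 library per genotype. No paired analysis was possible because each genotype has 1 library. Depth limits low genes: a gene with no UMI in the knock-in members allows up to 3 counts in 6355651 UMIs.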

Other observations

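Further pairs of fibroblast genes, most of them named above, ranked together or against each other among Tmem100 Ly6c1 fibroblasts. Over members thinned to 5000 UMIs, Cd55 ranked with Sema3c (Spearman rho 0.40 in knock-in and 0.47 in wild-type cells) and Igfbp6 with Fn1, the gene of fibronectin (0.51 and 0.25). Fn1 and Pi16 had a rho of -0.32 in knock-in and -0.05 in wild-type cells. Col15a1 ranked against Cd248 (-0.34 and -0.34) and Ly6c1 (-0.31 and -0.30). Cd55 and Ly6c1 are genes of the rule by which members were chosen. All these values are descriptions of cells that share a library.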
